A study of Sus scrofa with 4 samples.

Results

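The genes described here encode the receptors of retinoic acid, the proteins that carry retinol and retinoic acid, and the enzyme that breaks retinoic acid down. They were measured in pig blastocysts cultured with or without ethanol. The members were chosen by name, as array probes whose platform gene symbol was CYP26A1, RARA, RARB, RARG, RXRA, RXRB, CRABP1, CRABP2, RBP4 or STRA6. Of these 10 genes, 9 had a probe, 1 each, among 11060 genes with a usable symbol on the array. CRABP1 had no probe of that symbol, and 25673 of the 43794 probes carried no symbol.

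The data came from 4 two-colour arrays. On each, the amplified RNA of a pool of 10 expanded blastocysts cultured with ethanol was hybridised against that of a pool of 10 expanded blastocysts with no compound added. The ethanol pools had been kept from the zygote to day 7 in PZM3, a defined medium for pig embryos, holding 0.2% ethanol. The stated protocol names tightly sealed glass vials for the culture and does not describe the control pools separately. Ethanol RNA carried the dye Cy5 on arrays 1 and 3 and Cy3 on arrays 2 and 4. A pool averages its embryos, so differences between embryos were not measured. The labels do not say whether the pools came from separate cultures, so the p-values measure only the spread between these pool pairs, which may be technical. In pools of whole embryos, fewer cells of a type and less RNA per cell cannot be told apart.

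Retinoic acid is made from vitamin A. Retinol travels in plasma bound to RBP4, enters cells through STRA6 in several tissues, and is oxidised to retinaldehyde and then to retinoic acid. Inside cells CRABP1 and CRABP2 bind the acid, CRABP2 delivers it to its receptors, and CYP26 enzymes inactivate it. The receptors RARA, RARB and RARG bind DNA as pairs with RXRA, RXRB or RXRG and switch genes on when the acid is bound. RARB and CYP26A1 are themselves among the best known genes switched on by retinoic acid in vertebrate embryos and cell lines.

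None of the retinoid genes passed the test for a difference between ethanol and control pools. CYP26A1 had the value farthest from 0, 1.25-fold in ethanol over control pools with a 95% interval of 0.970 to 1.61. RARB had 1.09-fold, with an interval of 0.878 to 1.35. The receptors RARG, RXRA and RXRB, the carrier CRABP2 and the retinol receptor STRA6 had log2 ratios between -0.02 and 0.07. The test was limma's fit of each probe's log2 ratio on the direction of the hybridisation, with a term for the dye, adjusted over all 25892 probes kept. It called 0 of 7350 genes at an adjusted p under 0.05 (0%), and 0 of the 7 retinoid genes kept. At an unadjusted p under 0.05 it called 665 genes (9.05%) and again 0 of the 7. Over these 7 the median log2 ratio was 0.04, with 4 above 0 and 3 below, and over all genes it was -0.00, with 49.8% above 0.

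How far each probe stood above background bears on what its ratio can show. A probe was counted as above background where its intensity exceeded the 95th percentile of the array's 153 negative control spots in that dye, and kept where at least 3 arrays showed this for ethanol RNA or for control RNA. CRABP2 was 23.7 to 50.4 times that threshold in ethanol pools and 24.3 to 41.3 times in control pools. RARB was 1.65 to 3.64 times the threshold in ethanol pools and 2.35 to 3.14 times in control pools. STRA6 was also above it in every pool, at 1.26 to 1.44 times in ethanol and 1.20 to 1.29 times in control pools. CYP26A1 was 0.849 to 1.82 times the threshold in ethanol pools but 1.03 to 1.20 times in control pools. Its ratio thus rested on a control reading near background on every array. RARG reached 1.54 times the threshold in a control pool and was at 0.913 times in another. The remaining probes were at most 1.37 times the threshold, and RARA was under it in every pool.

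CYP26A1, RARG, RXRA and RXRB were kept with at least 1 reading not above background. For CYP26A1 this was the ethanol pool of array 1, for RARG the control pool of array 2, for RXRA the ethanol pool of array 3 and the control pool of array 2, and for RXRB both pools of array 4. RARA and RBP4 were not kept. The plot of levels by array shows which readings these were.

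**Figure D1:**
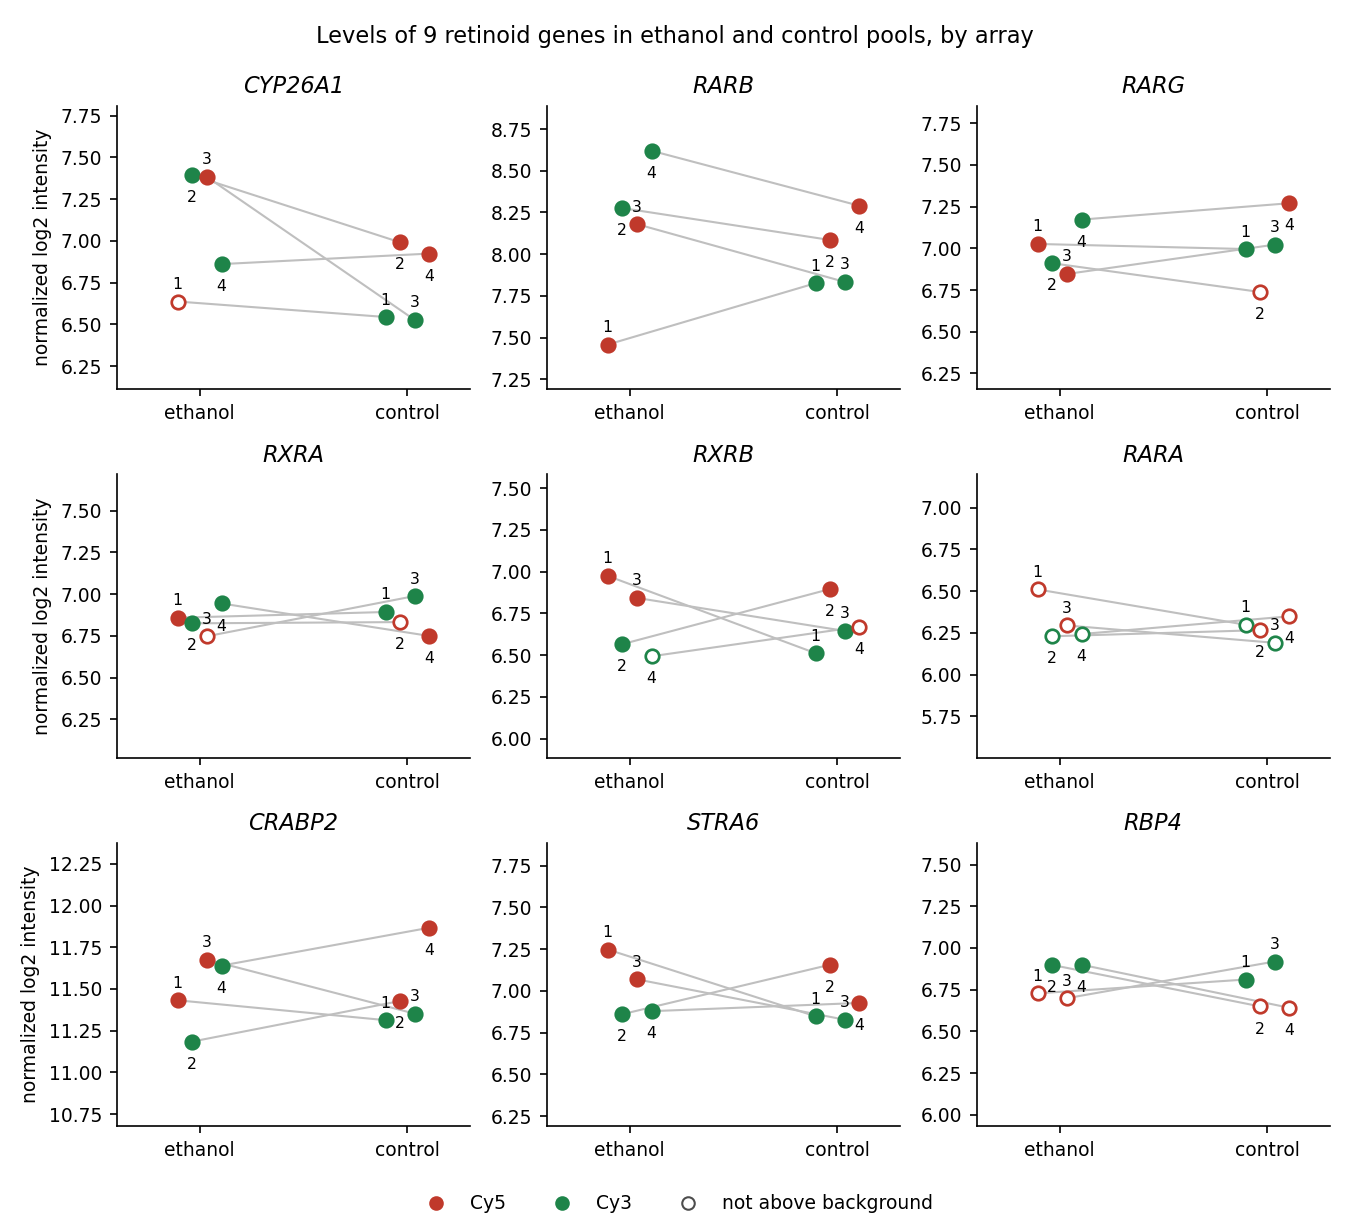
Normalized log2 intensity of the 9 retinoid genes with a probe (y axis, each panel on its own range) in the ethanol and control pools (x axis), with 1 point per pool, labelled by array and joined to the pool on the same array. Red points were read in Cy5 and green in Cy3, open points were not above background, and in every panel the ethanol and control points overlap.

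CYP26A1, the P450 enzyme that hydroxylates retinoic acid and so removes it, was measured by probe EMPV1_18401. Its level is given as log2 intensity after normalization within and between arrays. On arrays 1 to 4 it was 6.64, 7.39, 7.38 and 6.86 in the ethanol pools, against 6.54, 6.99, 6.53 and 6.92 in the control pools. The ethanol pools of arrays 2 and 3 stood above all 4 control pools, while those of arrays 1 and 4 lay among them, so the groups overlapped. The means were 7.07 ± 0.38 in ethanol pools and 6.75 ± 0.25 in control pools (SD, n = 4 each).

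As ethanol over control within each array, the CYP26A1 log2 ratio was 0.09, 0.40, 0.86 and -0.06 before the dye term. It was above 0 in 3 of 4 arrays, with a mean of 0.47 where ethanol RNA was in Cy5 and 0.17 where it was in Cy3. The fitted log2 ratio was 0.32 (SE 0.15; 95% interval -0.04 to 0.69; adjusted p = 0.725 by limma). Only 3.99% of genes had a ratio farther from 0, and 4.94% had a larger SE. Of the fits with 1 array left out, the log2 ratio was lowest without array 3, at 0.13. Array 1, whose ethanol reading was not above background, was then the only array with ethanol RNA in Cy5 and weighed more. Without array 2 the log2 ratio was 0.21. It was 0.51 without array 1 and 0.44 without array 4. The background correction also moved it: an offset of 50, added to every intensity, draws the ratios of dim probes towards 0. With an offset of 0 the log2 ratio was 0.57 (SE 0.23), and the adjusted p was 0.765.

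Of the receptors, RARB was the only one kept with every reading above background. Its gene carries a retinoic acid response element in its own promoter in human and mouse. Probe EMPV1_38547 gave log2 levels of 7.46, 8.28, 8.18 and 8.62 in the ethanol pools of arrays 1 to 4, against 7.83, 8.08, 7.83 and 8.29 in the control pools. The ethanol pool of array 1 was below every control pool and that of array 4 above every one, so the ethanol pools spanned the whole control range. The means were 8.13 ± 0.49 in ethanol pools and 8.01 ± 0.22 in control pools (SD, n = 4 each). Within arrays the log2 ratio was -0.37, 0.19, 0.35 and 0.33. Array 1 thus went against the other 3. The fitted log2 ratio was 0.12 (SE 0.13; 95% interval -0.19 to 0.44; adjusted p = 0.954 by limma), a ratio that 28.6% of genes exceeded in size. Without array 3 it was -0.05. Array 1 was then the only array with ethanol RNA in Cy5 and weighed more in the fit. The fitted log2 ratio was 0.30 without array 1, 0.16 without array 2 and 0.09 without array 4.

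RARG, the receptor type found in many early embryonic tissues of the mouse, was read by probe EMPV1_42852. Its log2 levels were 6.85 to 7.17 in ethanol pools and 6.74 to 7.27 in control pools, so the control range enclosed the ethanol range. The fitted log2 ratio was -0.02 (SE 0.08; 95% interval -0.23 to 0.19; adjusted p = 0.996 by limma), with 2 arrays above 0 and 2 below. As a fold this interval ran from 0.855 to 1.14 at the reported offset. With an offset of 0 the SE was 0.14, so the width depended on that setting.

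RXRA and RXRB are shared partners, which also pair with receptors for vitamin D, thyroid hormone, oxysterols and fatty acids. RXRA, probe EMPV1_15220, had log2 levels of 6.75 to 6.94 in ethanol pools and 6.75 to 6.99 in control pools. Its fitted log2 ratio was -0.02 (SE 0.08; 95% interval -0.22 to 0.18). RXRB, probe EMPV1_28708, had 6.49 to 6.97 in ethanol pools and 6.51 to 6.90 in control pools, and a fitted log2 ratio of 0.04 (SE 0.08; 95% interval -0.16 to 0.24). Neither gene separated the groups, and the adjusted p by limma was 0.994 for RXRA and 0.989 for RXRB. RXRG, the third member of that family, had 0.10 (SE 0.07).

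RARA, the receptor type expressed most widely in adult mammals, gave no reading above background. Its probe, EMPV1_13364, was at 0.680 to 0.834 times the negative control threshold in the 4 ethanol pools and at 0.627 to 0.882 times in the 4 control pools. No fold is given for it, since both groups were below background. The array therefore sets no value on this receptor in either group.

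Among the carriers, CRABP2, which hands retinoic acid to the receptors in the nucleus, was the one gene of the family read far above background. Probe EMPV1_26705 gave log2 levels of 11.43, 11.18, 11.68 and 11.64 in the ethanol pools of arrays 1 to 4, against 11.31, 11.43, 11.35 and 11.87 in the control pools. The lowest reading was an ethanol pool and the highest a control pool, with the others between them. The means were 11.48 ± 0.23 in ethanol pools and 11.49 ± 0.26 in control pools (SD, n = 4 each). The fitted log2 ratio was -0.01 (SE 0.07; 95% interval -0.19 to 0.18; adjusted p = 0.9988 by limma). As a fold, the interval for CRABP2 ran from 0.876 to 1.13. Its width depended on the settings. The SE was 0.11 with an offset of 0, 0.10 with an intensity trend and robust prior in limma, and 0.06 with mean pixels.

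STRA6, the membrane receptor that takes retinol from RBP4, was read by probe EMPV1_04463. Its log2 levels were 7.25, 6.86, 7.07 and 6.88 in the ethanol pools of arrays 1 to 4, against 6.85, 7.16, 6.83 and 6.93 in the control pools. The highest reading came from an ethanol pool and the next from a control pool, both in Cy5. The fitted log2 ratio was 0.07 (SE 0.08; 95% interval -0.12 to 0.27; adjusted p = 0.960 by limma). It was 0.01 without array 4 and 0.14 without array 2. RBP4, the plasma carrier of retinol and a known product of pig trophoblast, was read by probe EMPV1_30434 and was above background in 2 of 4 ethanol pools and 2 of 4 control pools. These were all 4 readings in Cy3, and no reading in Cy5 was. Its log2 levels were 6.70 to 6.90 in ethanol pools and 6.64 to 6.92 in control pools, so the groups overlapped. No fold is given for RBP4, since on every array 1 of the 2 readings was not above background.

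**Figure D2:**
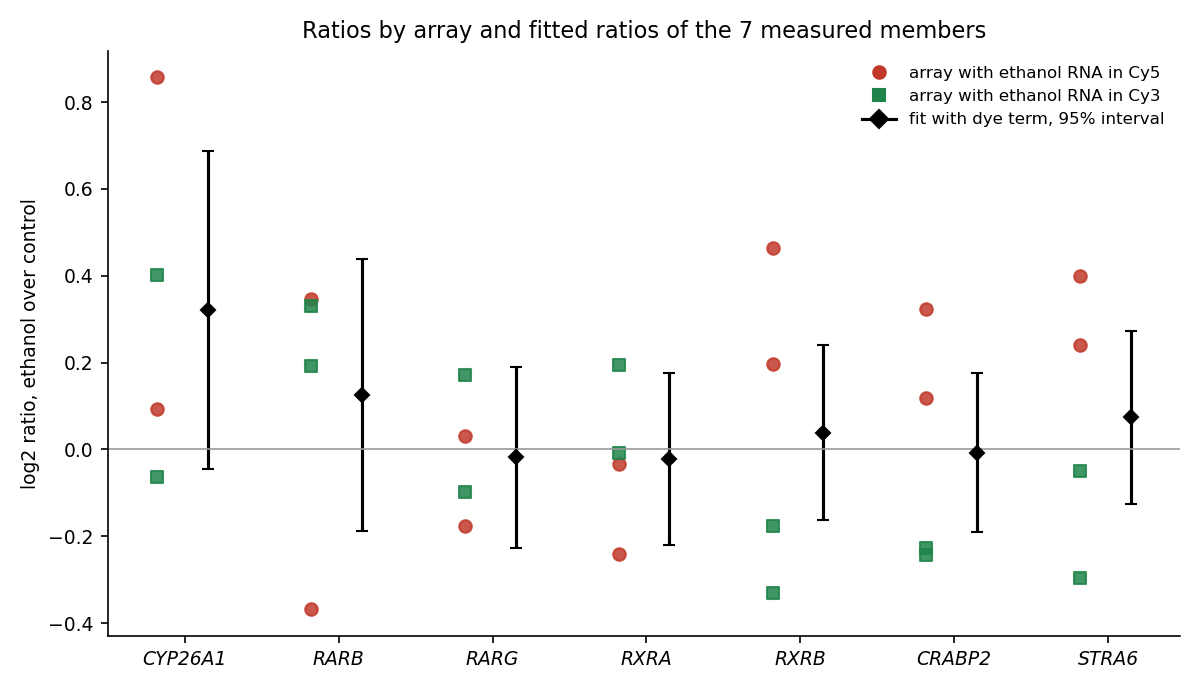
Log2 ratio of ethanol over control for the 7 retinoid genes kept (y axis), with small points for each array before the dye term and the fitted ratio with its 95% interval. All 7 intervals include 0, and the interval of CYP26A1, from -0.04 to 0.69, reaches farthest above it.

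**Figure D3:**
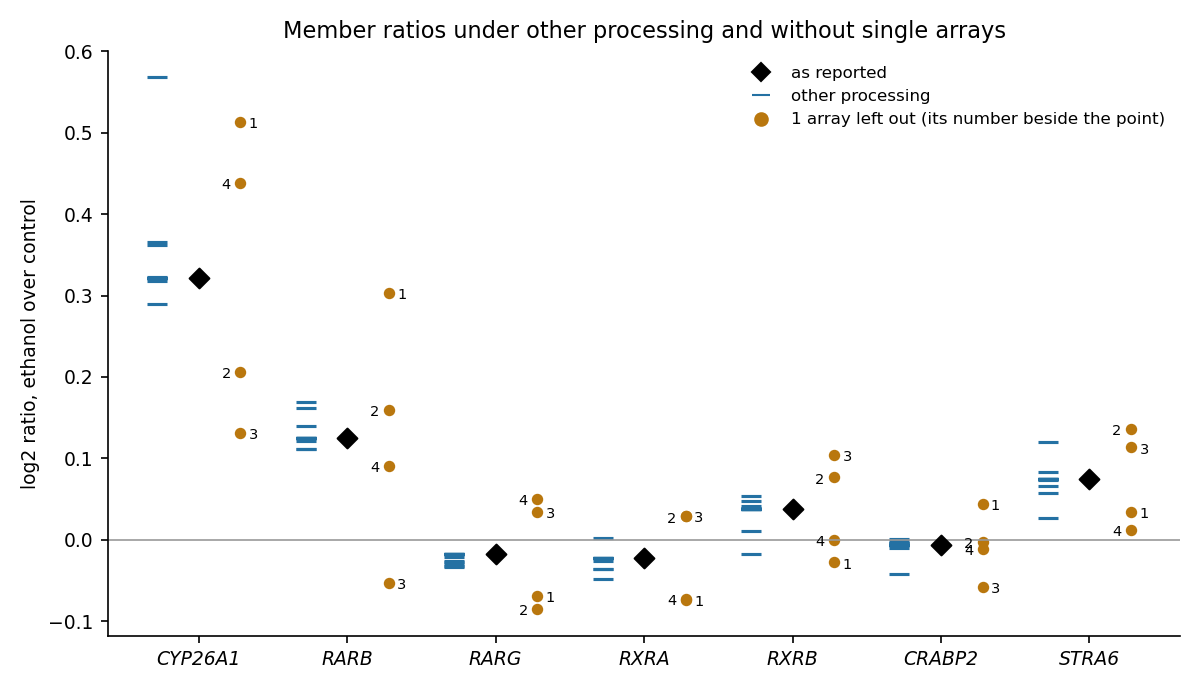
Log2 ratio of ethanol over control (y axis) of each retinoid gene kept (x axis) under the other ways of processing the arrays (bars) and with each array left out, shown as points labelled with that array's number. CYP26A1 stays above 0, from 0.13 without array 3 to 0.57 with a normexp offset of 0, and RARB spans -0.05 to 0.30.

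For several of these genes the dye coefficient was larger than the difference between treatments. That coefficient is the part of the log2 ratio that stayed with Cy5 whichever RNA carried it. It was 0.29 for RXRB, 0.25 for STRA6 and 0.23 for CRABP2, against fitted treatment ratios of 0.04, 0.07 and -0.01. For these 3 genes the ratio of ethanol over control was above 0 on both arrays with ethanol RNA in Cy5 and below 0 on both with it in Cy3. RXRB had log2 ratios of 0.46, -0.33, 0.20 and -0.18 on arrays 1 to 4, STRA6 had 0.40, -0.30, 0.24 and -0.05, and CRABP2 had 0.12, -0.24, 0.32 and -0.23. In 6 of the 7 genes, all but CYP26A1, the dye coefficient was larger in size than the treatment ratio. For RARB the margin was small, -0.14 against 0.12. The share of all genes for which this held was not counted. Over all genes the dye coefficient ran from -0.36 at the 5th percentile to 0.33 at the 95th. That range was wider than the range of the treatment ratio, -0.22 to 0.24. The dye coefficients of the retinoid genes thus lay within the general range.

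Each dye was used for 2 pools of each group, so pools read in the same dye can be set side by side. In Cy5 the log2 level of CYP26A1 differed by 0.75 between the ethanol pools, array 3 minus array 1, and by -0.07 between the control pools, array 4 minus array 2. In Cy3 the difference was -0.53 between the ethanol pools, array 4 minus array 2, and -0.02 between the control pools, array 3 minus array 1. The ethanol pools thus lay farther apart than the control pools in both dyes. RARB differed by 0.72 between ethanol pools against 0.21 between control pools in Cy5, and by 0.34 against 0.01 in Cy3.

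For the ethanol pools of arrays 3 and 1, a difference larger in size than that of CYP26A1 was found in 2.15% of genes, and one larger than that of RARB in 2.61%. The median size of the difference over all genes was 0.178 for ethanol pools and 0.201 for control pools in Cy5. In Cy3 it was 0.166 for ethanol pools and 0.117 for control pools. Ethanol pools differed more than control pools in both dyes for 3 of the 7 genes, namely CYP26A1, RARB and RXRA, and for 24.8% of all genes. For RXRA the margins were small, -0.11 against -0.08 in Cy5 and 0.12 against 0.10 in Cy3. Each such difference rests on 2 pools, and none was tested. For CYP26A1 the ethanol pool of array 1 was also the reading not above background.

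**Figure D4:**
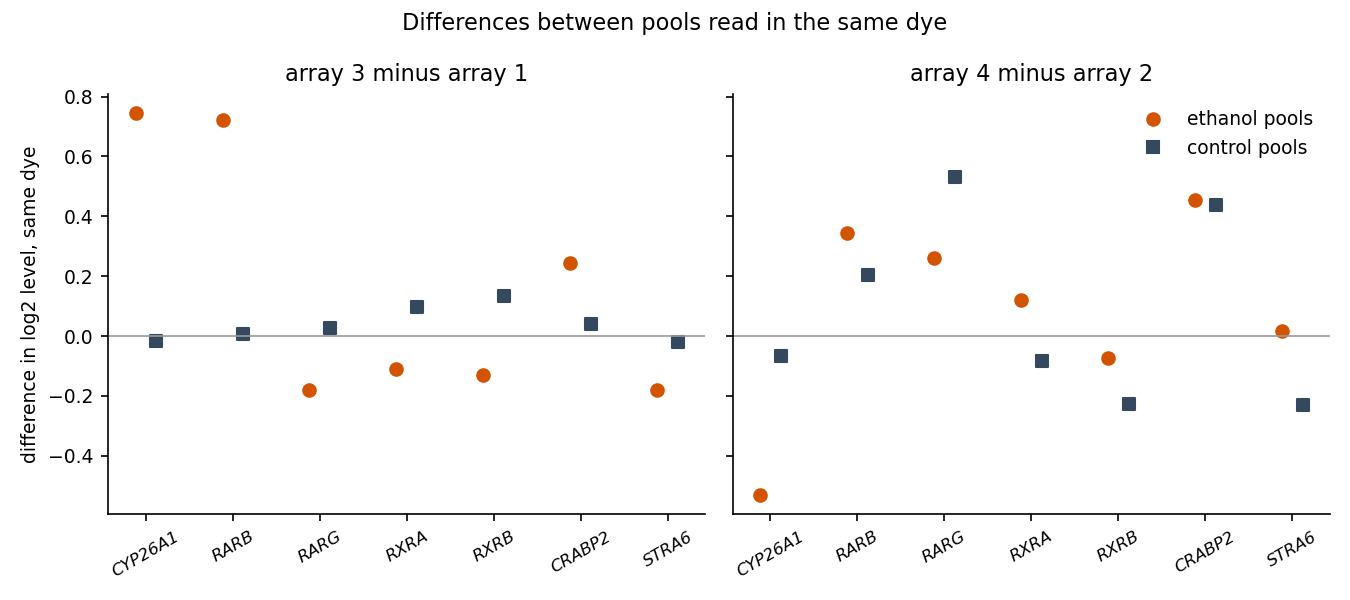
Difference in log2 level between pools of 1 group read in the same dye (y axis) for each retinoid gene kept (x axis), array 3 minus array 1 on the left (ethanol in Cy5, control in Cy3) and array 4 minus array 2 on the right (ethanol in Cy3, control in Cy5). On the left the ethanol values of CYP26A1 (0.75) and RARB (0.72) stand above all others, beside control values of -0.02 and 0.01.

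Genes that act around these members were described as 6 lists, covering 157 genes, of which 102 had a probe and 70 were kept. By limma 0 passed at an adjusted p under 0.05 and 4 at an unadjusted p under 0.05, all 4 higher in ethanol pools, which is 5.71% against 9.05% of all genes. Of the 70, 33 lay above 0 and 37 below, with a median log2 ratio of -0.00. The range was -0.24, for the oxysterol receptor gene NR1H2, to 0.36, for MED1. MED1 encodes the Mediator subunit that binds nuclear receptors, and its value was 0.15 without array 1. Some kept genes of these lists had readings not above background. LRAT and CYP1A1 were above it in 2 ethanol and 3 control pools, and SCARB1 in 3 and 3. For ADH4 and RXRG it was 3 ethanol and 4 control pools, and for NCOA2 and SIN3A 4 and 3.

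For retinol uptake, storage and transport, 8 of 22 listed genes were kept, 3 above 0 and 5 below. PNPLA4, which can hydrolyse retinyl esters, had a log2 ratio of 0.23 (SE 0.09) and was under an unadjusted p of 0.05. It was the only one of the 8, which is 12.5% against 9.05% of all genes. Another PNPLA4 probe had 0.12. On arrays 1 to 4 the brightest probe had 0.70, 0.02, 0.41 and -0.19 before the dye term. RBP2, the retinol-binding protein of the intestine, had -0.19 (SE 0.10), or -0.08 without array 2 and -0.30 without array 4. LRAT and DGAT1, which esterify retinol for storage, had -0.06 and -0.12, and the lipoprotein receptor gene SCARB1, which takes up carotenoids, had 0.12. DGAT1 was 0.03 without array 3, and SCARB1 -0.01 without array 2. Probes of DGAT1 ran from -0.32 to -0.02, and another SCARB1 probe had -0.02. TTR, the plasma partner of RBP4, had no probe of that symbol.

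Some of the enzymes that turn retinol into retinoic acid are relatives of those that oxidise ethanol to acetate. Of 26 listed genes for retinol and retinaldehyde dehydrogenases and reductases, 9 were kept. Of these 4 lay above 0 and 5 below, and 0 were under an unadjusted p of 0.05. DHRS7, a short-chain dehydrogenase, had 0.29 (SE 0.13) and 0.13 without array 1. RDH10, which makes retinaldehyde in the embryo, had 0.07 (SE 0.08) and 0.01 without array 1. DHRS3, which reduces retinaldehyde back to retinol, had 0.14 (SE 0.14), but -0.07 without array 4. ALDH1A3, one of the enzymes that make retinoic acid, had 0.09 (SE 0.10), but -0.03 without array 4. The alcohol dehydrogenase genes ADH4 and ADH5 had -0.07 and -0.02. ALDH1A2, the main source of retinoic acid in the early mouse embryo, had no probe of that symbol.

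On the breakdown side, CYP26B1 and CYP26C1, the other enzymes of the CYP26 family, had no probe of those symbols. Of 10 further breakdown and carrier genes 3 were kept. FABP5, a fatty acid carrier that can bring retinoic acid to PPARD, had 0.28 (SE 0.13) and 0.12 without array 1. CYP2E1, a P450 that oxidises ethanol and can also break down retinoic acid, had -0.13 (SE 0.08), or -0.07 without array 3. CYP1A1 had -0.07, or -0.02 without array 3.

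Among nuclear receptors that pair with RXR or are related to those that do, 12 of 19 were kept, 5 above 0 and 7 below, with 0 under an unadjusted p of 0.05. NR1H2 had -0.24 (SE 0.11) on its brightest probe and -0.02 on the probe nearest to 0. The first of these was -0.10 without array 2 and -0.37 without array 4. PPARD had -0.16 on its brightest probe, or -0.09 without array 4, and -0.02 on the probe nearest to 0. RORA, a receptor that binds DNA on its own, had 0.28 (SE 0.22), but -0.06 without array 4.

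Coregulators had 12 genes above 0 and 6 below among the 18 kept, with a median of 0.04. The p160 coactivator genes NCOA2 and NCOA1 were both under an unadjusted p of 0.05, at 0.30 (SE 0.08) and 0.23 (SE 0.07). These were 11.1% of the 18, against 9.05% of all genes. Probes of the same gene differed. NCOA2 had probes from -0.01 to 0.30, and NCOA1 from 0.09 to 0.23. Averaged over its probes NCOA2 had 0.14 (SE 0.07), and NCOA1 had 0.15 (SE 0.07). The corepressor gene SIN3A had -0.14 (SE 0.07).

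Of 57 genes known from other systems to respond to retinoic acid, 20 were kept, 8 above 0 and 12 below, with a median of -0.04. ADM, which encodes the peptide adrenomedullin, was the one under an unadjusted p of 0.05, at 0.29 (SE 0.07). That is 5% of the 20, against 9.05% of all genes. The basement membrane genes COL4A1 and LAMC1, which retinoic acid switches on in mouse teratocarcinoma cells, had 0.27 (SE 0.12) and 0.23 (SE 0.11). COL4A1 had 0.15 without array 4, and LAMC1 0.11 without array 1. Both are also on the list of hypoblast markers, of which 6 of the 8 kept lay above 0, with a median log2 ratio of 0.14. The 2 lists share further genes: LAMB1 had 0.19, but GATA6 had -0.05 and FOXA2 -0.17. Another COL4A1 probe had 0.02. The mitochondrial carrier gene UCP2 had -0.17 on its brightest probe and 0.03 on another, and the first of these was -0.10 without array 3.

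**Figure D5:**
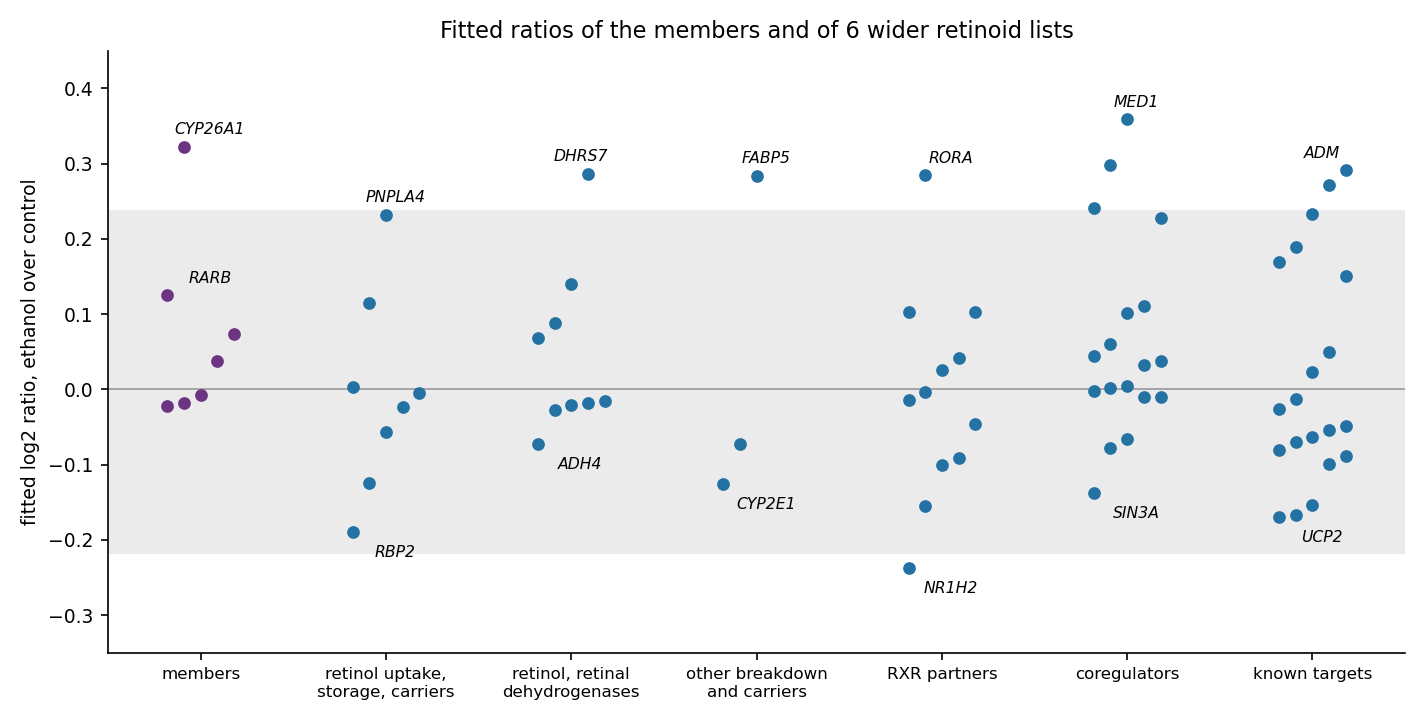
Log2 ratio of ethanol over control for each kept gene of the 6 wider lists and of the retinoid members (y axis, fitted values), 1 point per gene in a column per list, with the grey band marking the 5th to 95th percentile of all genes, -0.22 to 0.24. Points lie on both sides of 0 in all 7 columns, and those outside the band include CYP26A1, MED1, NCOA2 and ADM above it and NR1H2 below it.

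The labelled stage was set against markers of the blastocyst and of cells that could accompany it. Of 18 trophectoderm markers on the array 15 were kept, among them CDX2, GATA3 and KRT8, which were above background in every pool. POU5F1, an inner cell mass gene, was above background in every pool, while SOX2 was so in 1 ethanol and 1 control pool, and 4 of 8 inner cell mass markers were kept. The median log2 ratio was -0.07 for trophectoderm, with 6 of 15 above 0, and -0.16 for inner cell mass, with 0 of 4 above 0. It was 0.14 for hypoblast, with 6 of 8 above 0, and 0.09 for oocyte genes, with 5 of 7 above 0. All 15 cumulus and granulosa markers on the array were kept, 7 of them above background in every pool, with a median log2 ratio of 0.01 and 10 above 0. Of 4 sperm markers 1 was kept, and of 3 blood markers 1. By limma no gene of these lists passed at an adjusted p under 0.05. The part that carry-over cells, or the make-up of the embryos by lineage, have in the retinoid values was not tested.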

How the data were processed

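Total RNA of pig embryo pools was isolated, amplified in a pair of T7 rounds and labelled with Cy5 or Cy3, per the labels' protocols. The authors deposited 1 scanner table per array, with foreground and local background pixel intensities of each spot in Cy5 and Cy3, not normalized. For the scanner and the authors' own normalization, nothing is given in these sources. Another deposited table of processed values was matched to the arrays as log2 Cy5 over Cy3, centred near 0 (column medians -0.0138, -9.35e-05, 0.00378 and 0.00108). It followed loess log ratios computed here after plain background subtraction (correlation over probes 0.990, 0.997, 0.994 and 0.985 on arrays 1 to 4). Its correlation with the reported ratios, which used another background correction, was not computed. The deposited values served as an alternative. A further 4 columns matched no single label and were not used.

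Median foreground and background pixels were corrected by normexp (offset 50) and normalized by loess within arrays, with control spots at weight 0, in limma 3.58.1 (R 4.3.3). Levels were scaled between arrays by Aquantile. Per array, 46.7% to 56.8% of probes were above background in Cy5 and 70.3% to 73.7% in Cy3, and 25892 (59.1%) were kept. The number of arrays limits the precision: with the dye term each fit had 2 residual degrees of freedom before limma's shared variance. P-values were adjusted by Benjamini-Hochberg over all kept probes. Each gene is represented by the kept probe of highest mean intensity, with symbols from GEO's platform annotation. The code was checked on simulated data. Members and lists were chosen with earlier results of these data known. Named were all members, up to 4 genes of smallest p per list, and retinoid genes chosen by name. Alternatives were other background corrections, normalizations, detection limits, models and pixel summaries, the deposited log2 values, the mean over a gene's probes, and each array left out.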

Additional observations from a re-analysis of the deposited data

Results flagged for a closer look

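The ratios before the dye term were searched for an array standing apart from the other 3, over 27 values. None passed Dixon's limit for 4 values.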

How the results depend on the processing

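Arrays left out included, limma called 0 probes past the adjusted threshold under the 17 alternatives that test probes, and 0 retinoid genes under 18, which add the mean over a gene's probes. At an unadjusted p under 0.05 it called 1884 probes, against 878 without the dye term, 2696 with no filter on dim probes and 2616 with separate channels. Some settings, such as those that change only the filter, the variance or the dye term, leave a ratio as it is, and 242 of the 581 values of 33 named genes were identical to those reported and could not turn. Of the other 339, 320 kept their direction and 19 turned. For the 7 retinoid genes, 51 of 120 were identical, 58 kept their direction and 11 turned. CYP26A1 was above 0 in the 10 alternatives that changed its ratio, had an adjusted p of at least 0.517 in the 17 that measured it, and was not kept when both RNAs had to be above background on all arrays. Its unadjusted p was under 0.05 with an offset of 0, with median centring, with an intensity trend and robust prior, without array 1 and without array 4, and that of RARB without array 1.

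With median centring in place of loess CRABP2 was 0.000603, with mean pixels RXRA was 0.00181 and RXRB -0.0180, and with a gene's probes averaged ADH5 was 0.0207. Leaving out 1 array gives more weight in the fit to the other array with the same dye direction. With 1 array left out the log2 ratio ran from -0.0535 to 0.303 for RARB, -0.0853 to 0.0498 for RARG, -0.0737 to 0.0295 for RXRA, -0.0281 to 0.105 for RXRB, and -0.0583 to 0.0442 for CRABP2. Over the same settings it ran from -0.00564 to 0.236 for SCARB1, -0.282 to 0.0319 for DGAT1, -0.0702 to 0.351 for DHRS3, -0.0338 to 0.209 for ALDH1A3, -0.122 to 0.0796 for ADH5, and -0.0620 to 0.632 for RORA. The cause was not tested. The fit on ratios within arrays already pairs each ethanol pool with the control pool of its array. With 4 arrays and the reported offset, 95% intervals of the retinoid genes reached 0.18 to 0.37 (log2) to either side, CRABP2 included. Smaller differences could not be told from 0. With an offset of 0 the SE was larger for every retinoid gene kept. It was 0.23 against 0.15 for CYP26A1, 0.14 against 0.08 for RARG, and 0.13 against 0.08 for RXRA, RXRB and STRA6. The stated widths thus hold only for the reported offset, and are not narrow bounds on dim probes. The 95% intervals are also not adjusted for the number of probes, so the adjusted test can also miss larger differences. ADM, at 0.29 with an interval of 0.12 to 0.46, had an adjusted p of 0.513 by limma.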
